A study of Mus musculus with 12 samples.

Results

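The genes described are 10 members of the NOTCH1 pathway and of the MYC pair it feeds in T cell acute lymphoblastic leukaemia (T-ALL): the receptors Notch1 and Notch3, the DNA-binding factor Rbpj and its coactivator Maml1, the targets Hes1, Dtx1, Nrarp and Ptcra, and Myc with its partner Max. They were chosen by symbol among 19937 genes named on a whole-transcript microarray, and each was read from the probe set with the highest mean over the 12 arrays. These symbols had 11 probe sets, since Rbpj had a second one, and all 10 genes lay above the filter on dim signal and were among the 13180 genes tested.

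The cells were of mouse T-ALL clone number 483, of C57BL6 background, so every group comes from 1 leukaemic clone. RNA of pooled polysome fractions and cytoplasmic RNA were measured after exposure for 2 h to 100 µM 4EGI-1, an inhibitor of the contact between eIF4E, which holds the mRNA cap, and the scaffold eIF4G, or to the control condition. The 4 groups of 3 arrays each are polysomal 4EGI-1, polysomal control, cytoplasmic 4EGI-1 and cytoplasmic control. The labels call the control untreated while the protocol names the solvent DMSO, and they call the second fraction cytoplasmic while the titles call it total. Replicates are called biological in the design text, which takes the cytoplasmic RNA from the same samples as the polysomes, without saying which arrays share a culture. The p-values therefore rest on array-to-array spread, part of which may be technical.

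NOTCH1 is a surface receptor that is cut after it binds a ligand on a neighbouring cell, and its released intracellular part enters the nucleus. There it joins RBPJ, which sits on DNA, and a Mastermind protein such as MAML1, and the complex switches target genes on. In T-ALL the receptor gene is often mutated so that signalling runs without ligand, and Myc is among its direct targets. MYC binds DNA as a pair with MAX and drives genes of growth and ribosome production.

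All values are RMA values on the log2 scale as the authors deposited them. RMA brings arrays that are processed together to a common scale, and whether all 12 arrays were is not stated. A change is relative to other RNAs on the array, and a change in total polysomal RNA is not measured. Fewer cells of a type cannot be told apart from less RNA per cell. The array medians lay between 6.40 and 6.56. Of 11 listed T cell markers 10 had a probe set here, and all 10 had mean values from 8.04 to 12.05, above the filter level. Of the other markers, 2 of 5 B cell genes, 3 of 6 myeloid genes, the 1 erythroid gene measured and 4 of 4 stromal genes lay above that level, none of them higher than 8.48. Among the markers, Cd2, Cd3e and Cd3d fell in polysomal RNA, where 12.1% of all genes tested fell. In cytoplasmic RNA, where 7.79% fell and 10.1% rose, Cd2, Cd3e, Epor, Pdgfrb and Pecam1 fell and Mpo rose. On all 4EGI-1 arrays the summed T cell markers were lower, at 102.5 to 102.8 against 104.9 to 105.1 in polysomal RNA. In cytoplasmic RNA they were 101.6 to 102.3 against 103.1 to 104.2. Summed erythroid and stromal markers were lower in both fractions. Myeloid ones were higher in polysomal RNA only, and B cell ones overlapped. The part of the markers in the results below was not tested.

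**Figure D1:**
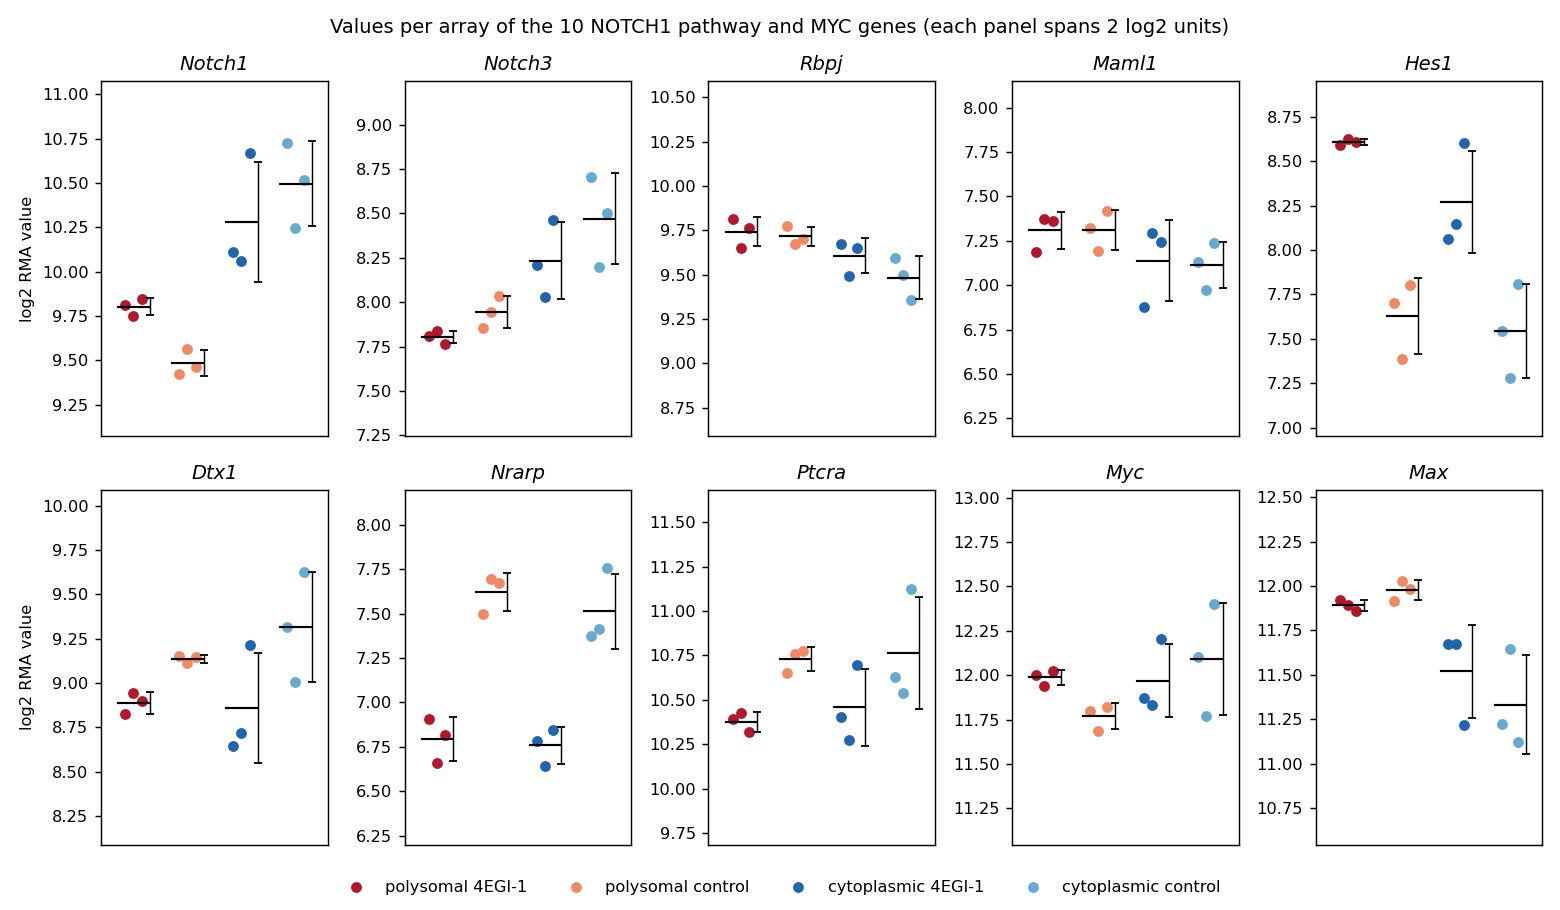
Deposited log2 value of each of the 10 genes on each array (points, arrays 1 to 3 from left to right in a group), with the group mean (line) and standard deviation (bar), for polysomal 4EGI-1, polysomal control, cytoplasmic 4EGI-1 and cytoplasmic control, every panel spanning the same height. Hes1 was higher and Nrarp lower on all 4EGI-1 arrays of either fraction, and Notch1 was lowest in polysomal control at 9.48.

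The clearest changes lay among the targets, and they ran opposite ways. Hes1 rose and Nrarp fell with 4EGI-1, in polysomal as in cytoplasmic RNA. Dtx1 fell in cytoplasmic RNA by a margin that most alternative settings ended, and Ptcra had lower means that did not pass. The receptor genes, Rbpj, Maml1, Myc and Max did not pass in either fraction. Of the 10 genes, 1 rose and 1 fell in polysomal RNA, where 13.0% of all genes tested rose and 12.1% fell. In cytoplasmic RNA 1 rose and 2 fell, against 10.1% of all genes tested that rose and 7.79% that fell. With 10 genes, 1 call is a share of that order, so these counts lie near the background.

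Hes1 encodes a transcriptional repressor that is the classical target of the NOTCH complex. Its values were 8.59, 8.62 and 8.61 in polysomal 4EGI-1, against 7.70, 7.39 and 7.80 in polysomal control. In cytoplasmic RNA they were 8.06, 8.15 and 8.60 with 4EGI-1, against 7.54, 7.28 and 7.81 in control. The 4EGI-1 arrays lay above every control array in both fractions, with a gap of 0.79 in polysomal and 0.25 in cytoplasmic RNA. Hes1 rose by 0.98 ± 0.15 in polysomal RNA (SE, n = 3 arrays per group), a 1.97-fold change (limma, adjusted p = 0.000201). In cytoplasmic RNA it rose by 0.73 ± 0.15, a 1.66-fold change (limma, adjusted p = 0.00324). It passed under each of the 22 alternative settings in both fractions, with adjusted p-values up to 0.00188 in polysomal and 0.0263 in cytoplasmic RNA.

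Nrarp encodes a small ankyrin-repeat protein that is induced by NOTCH and acts back on its complex as an inhibitor. It had 6.91, 6.66 and 6.82 in polysomal 4EGI-1, against 7.50, 7.70 and 7.67 in polysomal control. The cytoplasmic values were 6.79, 6.64 and 6.85 with 4EGI-1, against 7.37, 7.41 and 7.76 in control. No 4EGI-1 array reached any control array of its fraction. Nrarp fell by 0.83 ± 0.11 on the log2 scale in polysomal RNA, to 0.563 of the control level (limma, adjusted p = 4.68e-05). In cytoplasmic RNA it fell by 0.76 ± 0.11, to 0.592 of control (limma, adjusted p = 0.000199). This change too passed under all 22 alternatives in either fraction, with adjusted p-values up to 0.000553 and 0.00519. Its treated values lie less than 1 log2 unit above the filter level.

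Dtx1 encodes Deltex, an E3 ubiquitin ligase that binds the NOTCH intracellular part. In polysomal RNA it had 8.82, 8.94 and 8.90 with 4EGI-1, against 9.15, 9.11 and 9.14 in control. Cytoplasmic values were 8.64, 8.72 and 9.21 with 4EGI-1, against 9.31, 9.01 and 9.63 in control, and these groups overlapped. The polysomal groups did not overlap, yet the change of -0.25 ± 0.15 did not pass (limma, adjusted p = 0.261). In cytoplasmic RNA Dtx1 fell by 0.46 ± 0.15 (limma, adjusted p = 0.0441). That call held in 8 of 22 alternatives: it stayed without cytoplasmic control array 2 or cytoplasmic 4EGI-1 array 3 and was lost without any other single array, with adjusted p-values from 0.0579 to 0.189. With the 6 cytoplasmic arrays alone the limma adjusted p was 0.17. The polysomal change passed with the 6 polysomal arrays alone (limma, adjusted p = 0.00711). It passed in 3 of 22 alternatives, with limma adjusted p-values up to 0.461 over the 22.

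Ptcra encodes the pre-T-cell receptor alpha chain, which pairs with the rearranged beta chain in immature thymocytes. It had 10.39, 10.42 and 10.32 in polysomal 4EGI-1, against 10.65, 10.76 and 10.78 in polysomal control. The cytoplasmic values were 10.40, 10.28 and 10.70 with 4EGI-1, against 10.63, 10.54 and 11.12 in control. The groups were apart in polysomal RNA and overlapped in cytoplasmic RNA. Its change of -0.35 ± 0.13 in polysomal RNA did not pass (limma, adjusted p = 0.0708), nor did that of -0.30 ± 0.13 in cytoplasmic RNA (limma, adjusted p = 0.137). With the 6 polysomal arrays alone the polysomal change had an adjusted p of 0.0011 (limma). It passed in limma as well without cytoplasmic control array 2 (adjusted p = 0.0436) or 3 (0.0139), or without cytoplasmic 4EGI-1 array 3 (0.0386). These omissions left the estimate at -0.35. The polysomal change passed in 7 of 22 alternatives, with limma adjusted p-values up to 0.186 over the 22. In cytoplasmic RNA the Ptcra change was -0.42 and passed without cytoplasmic control array 2 (limma, adjusted p = 0.0382). It was -0.42 and passed too without cytoplasmic 4EGI-1 array 3 (limma, adjusted p = 0.0319). That change passed in 3 of 22 alternatives, with limma adjusted p-values up to 0.515 over the 22.

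**Figure D2:**
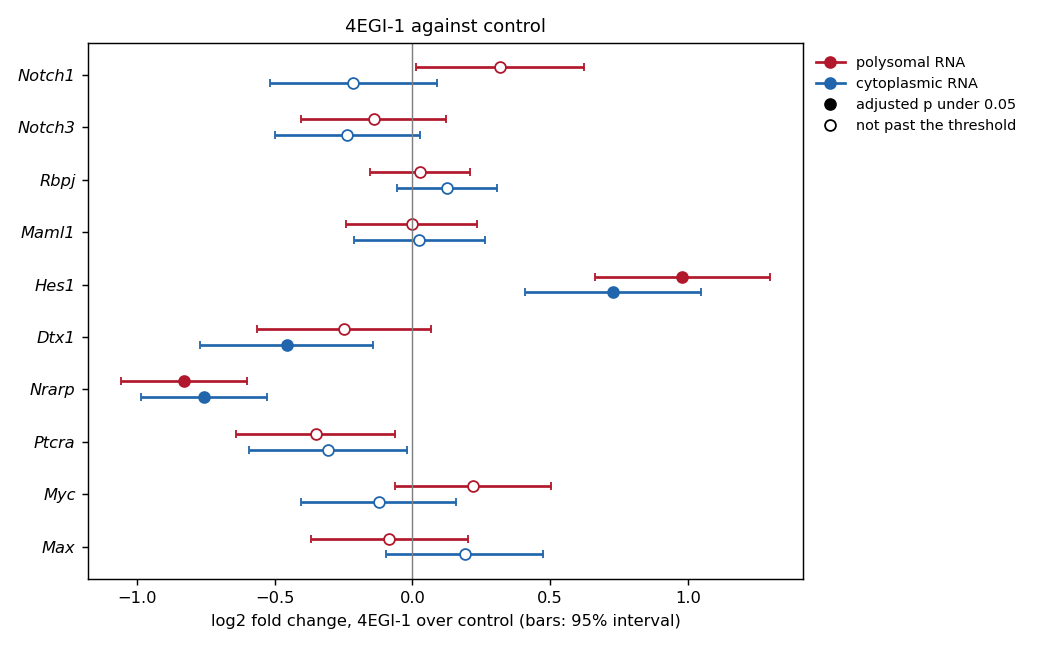
Log2 fold change of each gene, 4EGI-1 over control, in polysomal RNA (red) and cytoplasmic RNA (blue), with 95% intervals from limma, filled where the adjusted p is under 0.05. Hes1 (0.98 and 0.73) and Nrarp (-0.83 and -0.76) lie on opposite sides of 0 in both fractions. Notch1 (0.32 and -0.21), Myc (0.22 and -0.12), Max (-0.08 and 0.19) and Maml1 (-0.003 and 0.025) have estimates of opposite sign in the 2 fractions. None of the changes of these latter genes passed.

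The promoters of the 3 targets whose means were lower with 4EGI-1 are shown because NOTCH acts on its targets through DNA. Hes1 had no promoter entry to set beside them, and a link of these letters to the changes was not tested. Each sequence is the 250 bases before the gene's start in RefSeq (GRCm38.p6), 5′ to 3′ on the gene's strand, at chr2:25180508-25180757 (+) for Nrarp, chr5:120711670-120711919 (-) for Dtx1 and chr17:46763713-46763962 (-) for Ptcra. Capitals mark matches on either strand to TGGGAA, the core that RBPJ reads, to CACGTG, the E-box that MYC and MAX bind, and to CACNAG, the N-box that HES1 binds.
Nrarp: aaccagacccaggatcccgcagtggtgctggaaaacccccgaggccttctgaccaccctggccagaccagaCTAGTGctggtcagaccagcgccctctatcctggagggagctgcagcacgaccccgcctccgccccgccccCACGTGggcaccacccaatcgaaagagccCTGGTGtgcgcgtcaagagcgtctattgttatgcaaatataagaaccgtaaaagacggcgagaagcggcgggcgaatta
Dtx1: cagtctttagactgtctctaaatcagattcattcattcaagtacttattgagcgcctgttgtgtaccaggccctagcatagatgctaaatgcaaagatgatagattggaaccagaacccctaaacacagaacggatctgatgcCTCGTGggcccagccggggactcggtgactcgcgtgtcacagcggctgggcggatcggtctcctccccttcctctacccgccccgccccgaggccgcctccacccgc
Ptcra: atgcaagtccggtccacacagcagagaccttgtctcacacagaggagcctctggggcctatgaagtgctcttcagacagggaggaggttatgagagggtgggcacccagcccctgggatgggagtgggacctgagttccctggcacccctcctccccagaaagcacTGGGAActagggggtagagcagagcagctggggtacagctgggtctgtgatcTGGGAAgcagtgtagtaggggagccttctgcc

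Of the 10 genes, 8 had an entry in the promoter table, without Hes1 and Myc. Ptcra held TGGGAA at positions -84 and -32 from its start, and Rbpj held it too, while 21.6% of 32851 promoter windows of 250 bases did. Nrarp alone of the 8 held CACGTG, at position -108, against 6.02% of all windows. CACNAG was found in Nrarp at positions -179 and -79, in Dtx1 at position -107, and in Notch1 and Notch3, against 36.7% of all windows. Motifs did not overlap one another in the printed promoters, and a match describes letters and not binding.

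The receptor genes Notch1 and Notch3 were lower in polysomal than in cytoplasmic RNA, in 4EGI-1 cells and in control cells. Max was higher in polysomal RNA of control cells. The other genes did not pass in this comparison of fractions. In 4EGI-1 cells 2 of 10 were lower in polysomal RNA, where 7.15% of all genes tested were lower and 9.56% higher. In control cells 2 were lower and 1 was higher, against 12.2% of all genes tested that were lower and 16.7% that were higher. Centring each array on its median moved the split of these calls over all genes from 57.2% to 83.8% higher in 4EGI-1 cells and from 57.7% to 74.7% in control cells.

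Notch1 had 9.81, 9.75 and 9.84 in polysomal 4EGI-1, against 10.11, 10.06 and 10.67 in cytoplasmic 4EGI-1. In control cells it had 9.43, 9.57 and 9.46 in polysomal RNA, against 10.73, 10.25 and 10.51 in cytoplasmic RNA. The fractions were apart in both, and more so in control cells. The polysomal over cytoplasmic ratio was -0.48 ± 0.14 in 4EGI-1 cells (limma, adjusted p = 0.0326) and -1.01 ± 0.14 in control cells (limma, adjusted p = 0.000108). The ratio in control cells passed under all 22 alternatives. The ratio in 4EGI-1 cells lost its call without cytoplasmic 4EGI-1 array 3, at -0.28 (limma, adjusted p = 0.106), and without polysomal 4EGI-1 array 1, 2 or 3, at adjusted p-values of 0.0904, 0.093 and 0.0741. It was also lost with arrays centred on their medians, at -0.38 (limma, adjusted p = 0.108), and with no filter (limma, adjusted p = 0.0579).

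Set against the treatment, Notch1 was thus higher in polysomal 4EGI-1 than in polysomal control on every array, by 0.32 ± 0.14 (95% interval 0.01 to 0.62), which did not pass (limma, adjusted p = 0.125). In cytoplasmic RNA the change was -0.21 ± 0.14, with overlapping groups (limma, adjusted p = 0.34). The test of the difference between these effects gave 0.53 ± 0.20, an unadjusted p of 0.0185 and an adjusted p of 0.228 in limma. This was the smallest p among the 10 genes, none of which passed in that test (1 at an unadjusted p under 0.05), where 2.92% of all genes tested passed. The Notch1 difference passed in 2 of 21 alternatives, with limma adjusted p-values up to 0.478 over the 21. Without cytoplasmic 4EGI-1 array 3, whose value of 10.67 stood above the other 2 of its group, the difference was 0.73 (limma, adjusted p = 0.0118). In the same fit the cytoplasmic change was -0.41 (limma, adjusted p = 0.0173) and the polysomal change of 0.32 passed (limma, adjusted p = 0.0283). With the 6 polysomal arrays alone the polysomal change had an adjusted p of 0.00211 (limma). Of 22 alternatives the polysomal change passed in 4 and the cytoplasmic change in 2, with limma adjusted p-values up to 0.275 and 0.719.

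Notch3, itself a target of NOTCH1 in these leukaemias, had 7.81, 7.84 and 7.77 in polysomal 4EGI-1, against 8.21, 8.03 and 8.46 in cytoplasmic 4EGI-1. The control values were 7.85, 7.94 and 8.03 in polysomal RNA, against 8.71, 8.20 and 8.50 in cytoplasmic RNA. In each arm the polysomal arrays all lay below the cytoplasmic ones. The ratio was -0.43 ± 0.12 in 4EGI-1 cells (limma, adjusted p = 0.0275) and -0.53 ± 0.12 in control cells (limma, adjusted p = 0.00466). The first lost its call without cytoplasmic 4EGI-1 array 1 or 3 (limma, adjusted p = 0.0581 and 0.0947) and without polysomal 4EGI-1 array 1, 2 or 3 (0.0813, 0.0583 and 0.0869), with centred arrays (0.109) and with no filter (0.0502), while the second passed under all 22 alternatives. The change with 4EGI-1 was -0.14 ± 0.12 in polysomal RNA (limma, adjusted p = 0.473) and -0.24 ± 0.12 in cytoplasmic RNA (limma, adjusted p = 0.217). Its cytoplasmic change passed without cytoplasmic control array 2, at -0.37 (limma, adjusted p = 0.0287). The cytoplasmic change of Notch3 passed in 2 of 22 alternatives, with limma adjusted p-values up to 0.594 over the 22. The difference of its effects between fractions was 0.10 ± 0.17 (limma, adjusted p = 0.89), and whether this differs from Notch1 was not tested.

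**Figure D3:**
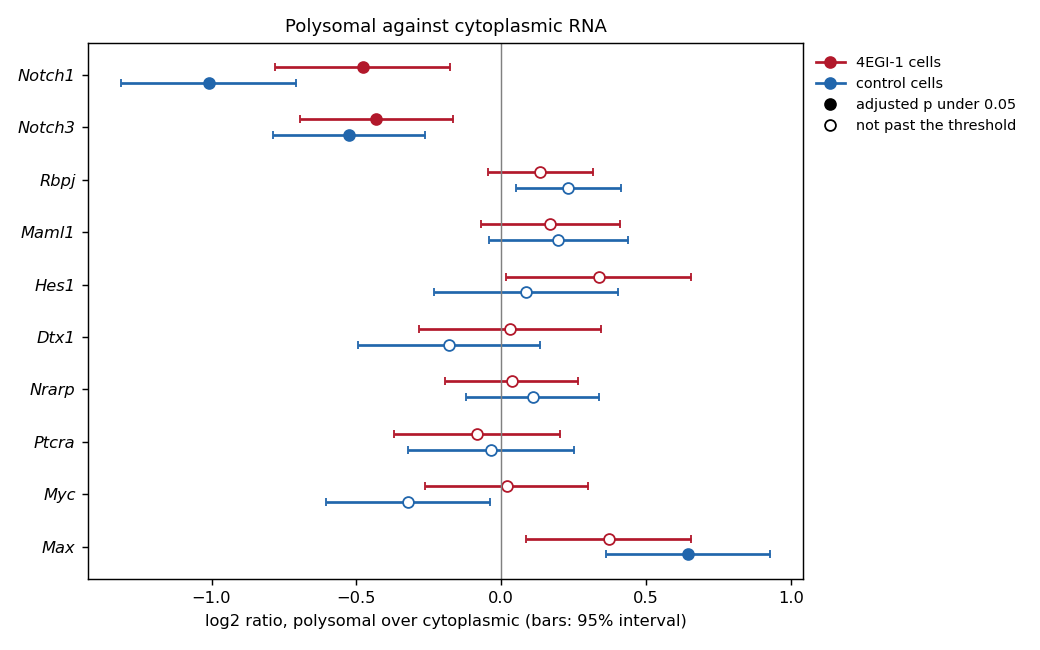
Log2 ratio of polysomal over cytoplasmic RNA for each gene in 4EGI-1 cells (red) and in control cells (blue), with 95% intervals from limma, filled where the adjusted p is under 0.05. Notch1 lies furthest below 0 in control cells, at -1.01, and Max furthest above it, at 0.64.

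Rbpj and Maml1, the nuclear partners of the receptor, gave the flattest profiles. Rbpj ranged from 9.36 to 9.81 over the 12 arrays, and its 4 group means spanned 0.26. Its changes with 4EGI-1 were 0.03 (95% interval -0.15 to 0.21) in polysomal RNA and 0.12 (-0.06 to 0.31) in cytoplasmic RNA. The second probe set of Rbpj, with group means from 5.22 to 5.45, lay below the filter level. Maml1 ranged from 6.88 to 7.42, with group means spanning 0.20 and changes of -0.00 (-0.24 to 0.24) in polysomal RNA and 0.02 (-0.21 to 0.26) in cytoplasmic RNA. In control cells Rbpj was higher on every polysomal array than on any cytoplasmic one, at a ratio of 0.23 ± 0.08 that missed the threshold (limma, adjusted p = 0.0526). It passed without cytoplasmic control array 1 (0.0378) or cytoplasmic 4EGI-1 array 2 (0.045) or 3 (0.0493), as limma adjusted p-values. This ratio passed in 7 of 22 alternatives, with limma adjusted p-values up to 0.856 over the 22.

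Myc had 12.00, 11.94 and 12.02 in polysomal 4EGI-1, against 11.80, 11.69 and 11.82 in polysomal control. In cytoplasmic RNA it had 11.87, 11.83 and 12.20 with 4EGI-1, against 12.10, 11.77 and 12.40 in control. The polysomal 4EGI-1 arrays all lay above the polysomal control arrays, by at least 0.12, whereas the cytoplasmic groups overlapped. The changes were 0.22 ± 0.13 (95% interval -0.06 to 0.50) in polysomal RNA and -0.12 ± 0.13 (-0.40 to 0.16) in cytoplasmic RNA. Neither passed (limma, adjusted p = 0.268 and 0.579), nor did their difference of 0.34 ± 0.19 (limma, adjusted p = 0.465). With the 6 polysomal arrays alone the polysomal change passed (limma, adjusted p = 0.0174). It passed in 2 of 22 alternatives, with limma adjusted p-values up to 0.509 over the 22. Polysomal over cytoplasmic, Myc had ratios of 0.02 ± 0.13 in 4EGI-1 cells (limma, adjusted p = 0.938) and -0.32 ± 0.13 in control cells (limma, adjusted p = 0.0828). The ratio in control cells passed in 4 of 22 alternatives, with limma adjusted p-values up to 0.327 over the 22. It passed without cytoplasmic control array 2, at -0.48 (limma, adjusted p = 0.00528), or without cytoplasmic 4EGI-1 array 3 (0.0485).

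Max had 11.92, 11.89 and 11.86 in polysomal 4EGI-1, against 11.67, 11.67 and 11.22 in cytoplasmic 4EGI-1. In control cells it had 11.91, 12.03 and 11.99 in polysomal RNA, against 11.22, 11.65 and 11.12 in cytoplasmic RNA. Every polysomal array lay above every cytoplasmic array. The ratio was 0.37 ± 0.13 in 4EGI-1 cells (limma, adjusted p = 0.0709) and 0.64 ± 0.13 in control cells (limma, adjusted p = 0.00199), and the ratio in control cells passed under all 22 alternatives. That in 4EGI-1 cells passed in 6 of 22 alternatives, with limma adjusted p-values up to 0.241 over the 22. Among the 6 were arrays centred on their medians, at 0.47 (limma, adjusted p = 0.0124), and leaving out cytoplasmic control array 2 (0.0238). The changes with 4EGI-1 were -0.08 ± 0.13 in polysomal RNA (limma, adjusted p = 0.721) and 0.19 ± 0.13 in cytoplasmic RNA (limma, adjusted p = 0.372). The cytoplasmic one was 0.35 and passed without cytoplasmic control array 2 (limma, adjusted p = 0.0454). It passed in 2 of 22 alternatives, with limma adjusted p-values up to 0.751 over the 22. Max and Myc, which act as a pair, thus had cytoplasmic and polysomal estimates of opposite sign to each other in each fraction, with no change of either passing.

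The order of the 4 groups differed between the genes. Notch1, with the highest mean of 10.50 in cytoplasmic control, was followed by cytoplasmic 4EGI-1, polysomal 4EGI-1 and polysomal control, and only its 2 cytoplasmic groups overlapped among neighbours. Notch3 ran from cytoplasmic control at 8.47 to polysomal 4EGI-1 at 7.80, and of its neighbours only the polysomal groups were apart. Hes1 and Nrarp each fell into 2 levels set by treatment, with the fractions overlapping inside each level, which for Hes1 put the 4EGI-1 groups on top and for Nrarp the control groups. For Dtx1 the control means were likewise above the 4EGI-1 means. For Max the 2 polysomal groups were above the 2 cytoplasmic groups, and the groups overlapped inside each pair. In Ptcra, Rbpj and Maml1 all neighbouring groups overlapped. In Myc polysomal control, lowest at 11.77, was apart from its neighbour, cytoplasmic 4EGI-1.

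The cytoplasmic arrays carried most of the error. The median standard deviation of the 10 genes was 0.051 in polysomal 4EGI-1, 0.073 in polysomal control, 0.22 in cytoplasmic 4EGI-1 and 0.26 in cytoplasmic control. Over all genes tested these medians were 0.076, 0.074, 0.12 and 0.13. The largest component of the deviations from group means held 44.8% of that variance, and scored 0.54 and -0.38 on cytoplasmic 4EGI-1 arrays 3 and 2 and 0.48 and -0.53 on cytoplasmic control arrays 3 and 2. In cytoplasmic 4EGI-1, 7 of the 10 genes were highest on array 3 and 6 were lowest on array 2. In cytoplasmic control, 6 were highest on array 3 and 7 lowest on array 2. All 12 arrays share 1 estimate of spread in the tests above. With the 6 polysomal arrays alone 3 of the 10 genes rose and 3 fell, where 17.8% of all genes tested rose and 20.4% fell. On the 6 cytoplasmic arrays alone 1 rose and 1 fell, where 5.55% of all genes tested rose and 2.80% fell. With array weights the share of all genes past the threshold was 39.2% in polysomal RNA, 42.2% in cytoplasmic RNA and 21.5% for the difference, and 35.4% and 45.9% for the fractions in 4EGI-1 and control cells. With 1 weight per fraction it was 38.3% in polysomal RNA. The groups of arrays did not overlap for 7 of the 10 genes in polysomal RNA (3 higher and 4 lower with 4EGI-1), as for 48.7% of all genes tested. In cytoplasmic RNA that held for 2 genes, 1 higher and 1 lower, against 26.5% of all genes tested.

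The genes with the pattern most like Notch1 over the 12 arrays were Actn4 (Pearson r = 0.989), which encodes an actin crosslinker, Srrt (0.972) and Cdan1 (0.969). Those most like Myc were Tcf12 (0.978), which encodes an E-protein transcription factor, Oxa1l (0.969) and Gata3 (0.969), a transcription factor of the T lineage. The 12 arrays share 4 groups and the cytoplasmic component above, so these values describe the arrays and nothing more. Actn4 averaged 10.45 ± 0.06 in polysomal 4EGI-1, 10.18 ± 0.05 in polysomal control, 10.86 ± 0.29 in cytoplasmic 4EGI-1 and 10.99 ± 0.24 in cytoplasmic control (SD, n = 3 arrays each), the same order as Notch1. Gata3 averaged 9.46 ± 0.08, 9.20 ± 0.11, 9.39 ± 0.34 and 9.74 ± 0.59 in those groups.

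Around the 10 genes, 8 lists of Notch and MYC genes held 160 further genes, of which 143 were tested. In polysomal RNA 18.2% of them rose and 12.6% fell, against 13.0% and 12.1% of all genes tested, with a median change of -0.05 against -0.03. In cytoplasmic RNA 4.20% rose and 9.79% fell, against 10.1% and 7.79%, with a median of -0.07 against -0.03. A difference between the fractions passed for 9 of them (6.29%), against 2.92% of all genes tested. All 9 had the higher change in polysomal RNA, the direction of 79.2% of the calls over all genes (305 of 385). Genes can stand on more than 1 list.

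**Figure D4:**
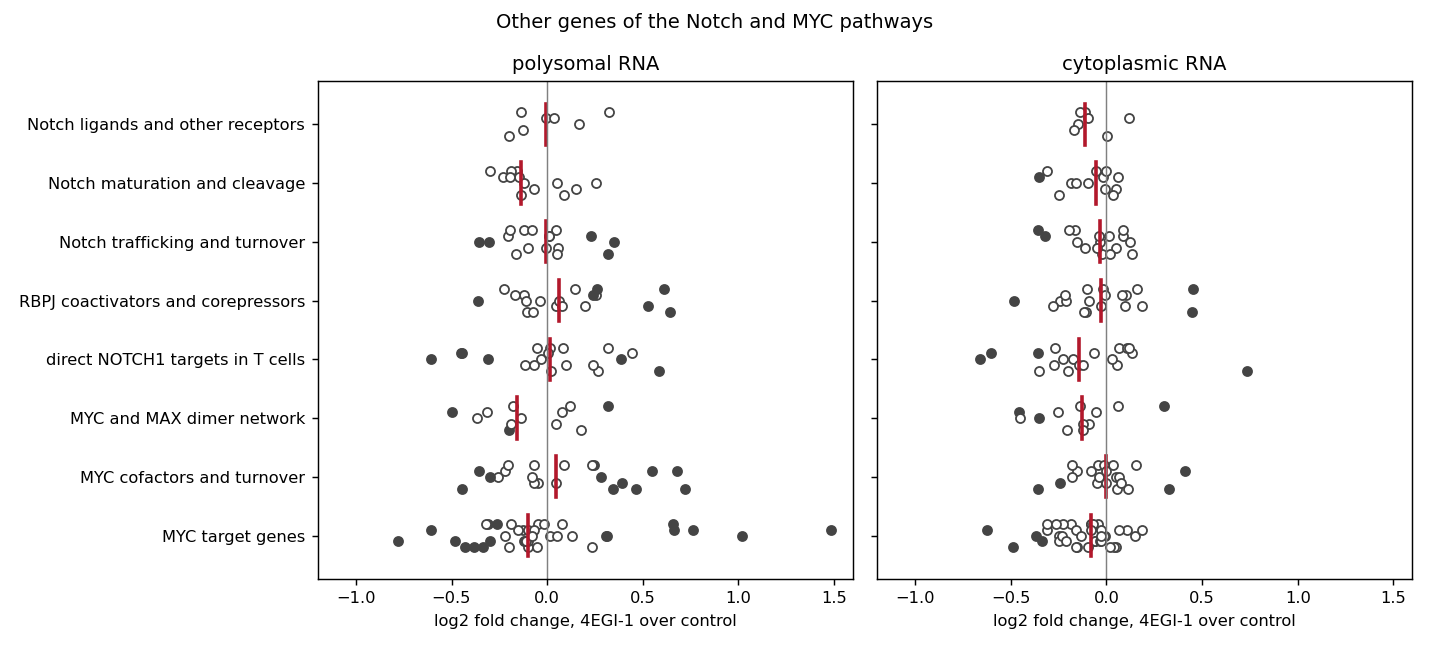
Log2 fold change, 4EGI-1 over control, of the tested genes of each of 8 lists in polysomal RNA (left) and cytoplasmic RNA (right), 1 circle per gene, filled where the limma adjusted p is under 0.05, with a red bar at the list's median. The list medians lie between -0.16 and 0.06, and Mybbp1a at 1.48 is the highest gene shown.

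At the cell surface, no ligand or other receptor gene passed with 4EGI-1 in limma among 7 tested. Of all genes tested, 13.0% rose and 12.1% fell in polysomal RNA, and 10.1% rose and 7.79% fell in cytoplasmic RNA. With so few genes, the absence of calls lies near that background. At an unadjusted p under 0.05, 1 of the 7 rose and 1 fell in polysomal RNA and none in cytoplasmic RNA, counts with no such share beside them. The list medians were -0.00 in polysomal and -0.11 in cytoplasmic RNA. Notch2, the receptor closest to Notch1, had a polysomal change of 0.32 ± 0.12 (limma, adjusted p = 0.0589) and a cytoplasmic change of -0.14 ± 0.12 (limma, adjusted p = 0.481), values chosen for mention after they were seen. The Notch2 ratio, polysomal over cytoplasmic, was -0.28 ± 0.12 in 4EGI-1 cells (limma, adjusted p = 0.12) and -0.74 ± 0.12 in control cells (limma, adjusted p = 0.000294). Notch1, Notch2 and Notch3 were thus all lower in polysomal RNA of control cells, where 12.2% of all genes tested were lower. Notch2 was the only 1 of the 7 tested genes of its list that was lower there, and the other 6 did not pass. Among 13 tested genes of receptor maturation and cleavage, none passed in polysomal RNA in limma, where 13.0% of all genes tested rose and 12.1% fell. At an unadjusted p under 0.05, 3 of the 13 fell there, again with no share of all genes beside it. In cytoplasmic RNA, where 10.1% of all genes tested rose and 7.79% fell, 1 of the 13 fell. This was Mfng, a Fringe glycosyltransferase (-0.35 ± 0.12; limma, adjusted p = 0.0474), whose call was lost in 14 of 22 alternatives.

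Of 17 genes of receptor trafficking and turnover, 3 rose, 2 fell and 12 did not pass in polysomal RNA. There 13.0% of all genes tested rose and 12.1% fell. In cytoplasmic RNA 2 fell and 15 did not pass, against 10.1% of all genes tested that rose and 7.79% that fell. Numb, an adaptor that restrains NOTCH, rose in polysomal RNA (0.32 ± 0.07; limma, adjusted p = 0.00442). Fbxw7, the ubiquitin ligase subunit that marks both NOTCH and MYC for degradation, fell there (-0.36 ± 0.09; limma, adjusted p = 0.00565). Nedd4l, a ubiquitin ligase (0.35 ± 0.10), rose and Cdk8, a Mediator kinase (-0.30 ± 0.09), fell in polysomal RNA. These 2 calls were lost without polysomal 4EGI-1 array 1 or 3, and also without polysomal control array 2 for Nedd4l and array 1 for Cdk8, with adjusted p-values up to 0.0917 and 0.0729 (limma). In cytoplasmic RNA Dtx3l, a Deltex relative (-0.36 ± 0.08), and Nedd4, a ubiquitin ligase (-0.32 ± 0.07), fell, the call of Nedd4 being lost with the cytoplasmic arrays alone (limma, adjusted p = 0.0693). Nedd4 rose in polysomal RNA (0.23 ± 0.07; limma, adjusted p = 0.0332), a call lost in 7 of 22 alternatives, among them leaving out any polysomal array but control array 3. The difference of the Nedd4 effects, polysomal minus cytoplasmic, was 0.55 ± 0.11 (limma, adjusted p = 0.00897).

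Of 19 tested coactivators and corepressors of RBPJ, 5 rose, 1 fell and 13 did not pass in polysomal RNA. The counts in cytoplasmic RNA were 2 that rose, 1 that fell and 16 that did not pass. Over all genes tested 13.0% rose and 12.1% fell in polysomal RNA, and 10.1% rose and 7.79% fell in cytoplasmic RNA. The histone demethylase gene Kdm5a rose by 0.64 ± 0.09 in polysomal and 0.45 ± 0.09 in cytoplasmic RNA (limma, adjusted p = 7.55e-05 and 0.0025). Cir1, which encodes a corepressor that binds RBPJ, rose by 0.61 ± 0.13 in polysomal RNA (limma, adjusted p = 0.00232) and by 0.45 ± 0.13 in cytoplasmic RNA (limma, adjusted p = 0.022). Its cytoplasmic call was lost without cytoplasmic control array 1 or cytoplasmic 4EGI-1 array 1 or 2, with adjusted p-values up to 0.115 in limma. The acetyltransferase gene Ep300 rose in polysomal RNA (0.53 ± 0.09), where Kat2b, another acetyltransferase gene, fell (-0.36 ± 0.08). Spen, the central corepressor of RBPJ, fell in cytoplasmic RNA (-0.48 ± 0.11; limma, adjusted p = 0.00486), a call lost with the cytoplasmic arrays alone (limma, adjusted p = 0.0515).

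Among 19 further tested genes listed as direct NOTCH1 targets in T cells, 2 rose, 4 fell and 13 did not pass in polysomal RNA. Their cytoplasmic counts were 1 that rose, 3 that fell and 15 that did not pass. The shares of all genes tested that rose and fell were 13.0% and 12.1% in polysomal RNA and 10.1% and 7.79% in cytoplasmic RNA. Il2ra, the alpha chain of the interleukin-2 receptor, rose by 0.58 ± 0.09 in polysomal and 0.74 ± 0.09 in cytoplasmic RNA (limma, adjusted p = 0.000249 and 6.16e-05). Trib2, a pseudokinase gene, fell by 0.61 ± 0.11 and 0.66 ± 0.11 (limma, adjusted p = 0.000642 and 0.000546). Skp2, the substrate receptor of a ubiquitin ligase that acts on cell cycle inhibitors, fell by 0.44 ± 0.09 in polysomal and 0.36 ± 0.09 in cytoplasmic RNA, and its cytoplasmic call was lost without cytoplasmic 4EGI-1 array 2 and with the cytoplasmic arrays alone (limma, adjusted p up to 0.0741). Rag1, a recombinase gene, rose in polysomal RNA (0.39 ± 0.07), and Ccnd3, which encodes cyclin D3, fell in polysomal RNA (-0.45 ± 0.12) and in cytoplasmic RNA (-0.60 ± 0.12), the polysomal call being lost without polysomal control array 1 (limma, adjusted p = 0.0611). The list medians were 0.01 in polysomal and -0.14 in cytoplasmic RNA.

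In the network of factors that share MAX or its relative MLX, 12 genes were tested, and 1 rose and 2 fell in each fraction. Of all genes tested, 13.0% rose and 12.1% fell in polysomal RNA, and 10.1% and 7.79% did in cytoplasmic RNA. Mxd3, which encodes a MAX partner that opposes MYC, fell in polysomal RNA (-0.50 ± 0.09; limma, adjusted p = 0.000726). Mxd4, of the same family, fell in cytoplasmic RNA (-0.35 ± 0.10; limma, adjusted p = 0.0225). Mga, another MAX partner, had 0.32 ± 0.10 in polysomal and 0.30 ± 0.10 in cytoplasmic RNA, Mnt had -0.20 ± 0.07 in polysomal and Mlx -0.46 ± 0.15 in cytoplasmic RNA. All of these passed in limma, with adjusted p-values from 0.0289 to 0.0487 for Mga, Mnt and Mlx, but the calls of Mxd4, Mga, Mnt and Mlx were lost in 5 to 14 of 22 alternatives.

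Of 21 tested MYC cofactors and turnover genes, 8 rose, 3 fell and 10 did not pass in polysomal RNA. The cytoplasmic counts were 2 that rose, 2 that fell and 17 that did not pass. Over all genes tested the shares that rose and fell were 13.0% and 12.1% in polysomal and 10.1% and 7.79% in cytoplasmic RNA. Ep400 (0.72 ± 0.09) and Trrap (0.68 ± 0.11), subunits of an acetyltransferase complex that MYC recruits, both rose in the polysomal fraction (limma, adjusted p = 1.98e-05 and 0.000421). The polysomal minus cytoplasmic difference was 0.61 ± 0.12 for Ep400 (limma, adjusted p = 0.0112) and 0.68 ± 0.16 for Trrap (limma, adjusted p = 0.0314), and that of Trrap was lost in 12 of 21 alternatives. Ccnt1, cyclin T1 of the elongation kinase, rose by 0.55 ± 0.08 in polysomal and 0.41 ± 0.08 in cytoplasmic RNA, and Usp37, a deubiquitinase gene, by 0.46 ± 0.07 and 0.33 ± 0.07. The cytoplasmic call of Usp37 was lost with the cytoplasmic arrays alone (limma, adjusted p = 0.0566). Cip2a, an inhibitor of the phosphatase that destabilises MYC, fell in cytoplasmic RNA (-0.24 ± 0.07; limma, adjusted p = 0.0275), a call that was lost in 8 of 22 alternatives.

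Of 38 tested MYC target genes, 7 rose, 9 fell and 22 did not pass in polysomal RNA, with a median of -0.10. In cytoplasmic RNA none rose in limma (1 did at an unadjusted p under 0.05), 4 fell and 34 did not pass. The cytoplasmic median was -0.08. Among all genes tested, 13.0% rose and 12.1% fell in polysomal RNA, and 10.1% rose and 7.79% fell in cytoplasmic RNA. Mybbp1a, a nucleolar gene (1.48 ± 0.15), Hk2, the glycolytic hexokinase (0.76 ± 0.09), and Tfrc, the transferrin receptor (0.66 ± 0.08), rose in polysomal RNA, and Ccnd2, which encodes cyclin D2, fell (-0.78 ± 0.10). Their adjusted p-values in limma lay between 4.81e-06 and 3.73e-05. Nop16, of the nucleolus (-0.63 ± 0.10), and Cdc25a, a cell cycle phosphatase (-0.49 ± 0.10), fell in cytoplasmic RNA. So did Polr1b, of RNA polymerase I (-0.37 ± 0.10), and Ccnd2 (-0.34 ± 0.10), although these 2 calls were each lost in 6 of 22 alternatives. In polysomal RNA Nop16 fell as well (limma, adjusted p = 0.000403), a call that held in all 22 alternatives. Cdc25a fell there too (-0.39 ± 0.10; limma, adjusted p = 0.0107), a call lost without polysomal 4EGI-1 array 2. Polr1b instead rose in polysomal RNA (0.31 ± 0.10; limma, adjusted p = 0.0372), a call lost in 8 of 22 alternatives, among them leaving out any 1 of the 6 polysomal arrays. Its difference of effects was 0.68 ± 0.14 (limma, adjusted p = 0.018) and was lost in 5 of 21 alternatives.

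Of the MYC targets 6 had a higher change in polysomal than in cytoplasmic RNA and none a lower one in limma's test of the difference (3 at an unadjusted p under 0.05). Over all genes tested 2.92% passed in that test, 305 with the higher and 80 with the lower change in polysomal RNA, so the direction is that of most calls. Mybbp1a (1.42 ± 0.21), Cad, which encodes the first enzymes of pyrimidine synthesis (1.27 ± 0.20), Mcm7, of the replicative helicase (0.74 ± 0.15), and Hk2 (0.66 ± 0.13) had the smallest p-values, with adjusted p from 0.00129 to 0.0132 in limma. The Hk2 difference was lost without polysomal 4EGI-1 array 3 (limma, adjusted p = 0.0538). Cad had a polysomal over cytoplasmic ratio of -0.86 ± 0.14 in 4EGI-1 cells and -2.12 ± 0.14 in control cells, and Mcm7 had -0.28 ± 0.10 and -1.02 ± 0.10. For these genes, as for Notch1, the polysomal level lay less far below the cytoplasmic one in 4EGI-1 cells than in control cells, and the difference passed for Cad and Mcm7 and not for Notch1.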

How the data were processed

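The deposited table holds 1 log2 value per probe set and array for 34760 probe sets and 12 arrays, which per the submitters' processing notes the authors made with RMA. Neither labels nor headers state its version or whether normalization was joint. Names come from GEO's annotation of the array platform, which can be old: 21640 probe sets carry 1 symbol, 1321 several and 11799 none. Symbols were updated by Entrez number through RefSeq (GRCm38.p6), which held 19855 of 19937. Per gene the probe set with the highest mean was kept, and genes with a mean under the 40th percentile of all probe sets were left out.

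Group means were fitted to 13180 genes with limma 3.58.1 (R 4.3.3), using all 12 arrays, lmFit and eBayes without a trend, for 5 comparisons, with Benjamini-Hochberg adjustment over all genes tested and a threshold of 0.05. Calls are those adjusted p-values. No exact test of 3 arrays against 3 was used. The script was tested on simulated data with independent noise of the same spread in every group. Those data lacked the larger spread and the shared component of the cytoplasmic arrays, so that test does not cover them. Alternatives were other filters, probe set means, fits on 6 arrays, another prior, 2 other normalizations, weights, a replicate block and leaving out each array. Named are the 10 genes and, per list and treatment comparison, up to 4 genes past the threshold with the smallest p, and for Notch1 and Myc the 3 genes of highest correlation. Members and lists were chosen with earlier results of these data known, so they support no test of their own. Listed genes without a probe set of 1 symbol, and some items that are not reported, were not analysed here. Same-numbered arrays did not deviate together in every pair (correlations from -0.22 to 0.56), so the numbers were not taken as pairs. Between the cytoplasmic arms, arrays 2 and 3 did deviate together (0.56 and 0.52) and array 1 did not (-0.22). The main fit leaves such shared deviation in the error, and the replicate block is an alternative to it. The number of arrays limits the precision.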

Additional observations from a re-analysis of the deposited data

How the results depend on the processing

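Hes1 and Nrarp, with 4EGI-1 in both fractions, and Notch1, Notch3 and Max, polysomal over cytoplasmic in control cells, kept direction and call under every alternative run, and no called change of the 10 genes reversed. The numbers of the 10 genes past the threshold moved most with the treatment of the spread. In polysomal RNA, main counts of 2 genes of the 10 and 3316 of all genes became 6 and 5031 with the 6 polysomal arrays alone, 6 and 5160 with array weights, and 5 and 5044 with 1 weight per fraction, a setting chosen after seeing the data, and leaving out 1 array gave 2 to 4 and 2517 to 3729. In cytoplasmic RNA 3 and 2352 became 7 and 5557 with array weights, the count of all genes being 1100 with the 6 cytoplasmic arrays alone and 1452 with 1 weight per fraction, and leaving out 1 array gave 2 to 6 and 1494 to 3093. For the difference of effects 0 and 385 became 4 and 2838 with array weights, with Notch1 (0.84; limma, adjusted p = 0.000286), Myc, Max and Dtx1. With no filter, a fit that tested all 19937 named genes instead of 13180, 242 of all genes passed. Leaving out 1 array gave 0 to 1 and 200 to 670 for this difference. Array weights gave cytoplasmic array 1 of either arm 2.44 to 3.83 and the other cytoplasmic arrays 0.28 to 0.56, so those values rest largely on 2 arrays. For polysomal over cytoplasmic RNA in 4EGI-1 cells, 2 and 2202 became 5 and 4672 with array weights. They became 0 and 1738 with no filter (again 19937 genes tested), 1 and 2632 with arrays centred on their medians and 4 and 2582 with the replicate block. Leaving out 1 array gave 0 to 3 and 1045 to 2651. In control cells 3 and 3819 became 5 and 6054 with array weights and 5 and 4188 with the replicate block, and leaving out 1 array gave 3 to 5 and 2792 to 4175. The replicate block lost no call of the 10 genes and added 5, among them Ptcra in polysomal RNA (limma, adjusted p = 0.0344). Its counts of all genes also lay above the main ones in every comparison, with 3645 against 3316 in polysomal RNA. Of the listed genes 44 in polysomal and 20 in cytoplasmic RNA became 70 and 8 with the fraction alone. With the mean of its probe sets, Rbpj had levels of 7.48, 7.49, 7.48 and 7.46 in polysomal 4EGI-1, polysomal control, cytoplasmic 4EGI-1 and cytoplasmic control, since the second probe set is dim. The cause of the other moves was not tested.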
